A study of Mus musculus with 4 samples.

Results

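The SLAM family receptors and their adaptor SAP were examined in CD4 cells of sanroque and wild type mice. The members were chosen by name. They comprised the receptor genes Slamf1, Slamf6, Slamf7, Cd84, Ly9 and Cd244a, the ligand gene Cd48, and Sh2d1a, which encodes SAP. All 8 genes had at least 1 probe set annotated to them alone, which gave 12 probe sets of 22690 on the array. The san/san group comprised 2 arrays of CD4 cells from sanroque mice, homozygous for a recessive variant that arose by ENU mutagenesis of C57BL/6 males and was found in a screen for antinuclear autoantibodies. The +/+ group comprised 2 arrays of CD4 cells from wild type mice. The sanroque variant is known to lie in Rc3h1, the gene of the mRNA decay factor Roquin-1, and is carried in the germline, so it is not restricted to T cells. Neither group is described as treated, and the labels do not give the ages of the mice used. Rc3h1 itself had no probe set to its name alone and was not analysed here. RNA was hybridised to Affymetrix MOE430A arrays. The experiment information calls the RNA of both number 1 arrays that of sorted T cells, and carries the letters CBA for +/+ array 2, which the labels do not explain. The sources used here do not state the strain background of each array, so strain and mutation cannot be told apart. They also do not state that replicate arrays came from different mice, and p-values then cover the spread between arrays alone, which can be technical.

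SLAM receptors are immunoglobulin superfamily proteins of blood cells. Most of them bind a copy of themselves on a neighbouring cell, whereas CD48 is a GPI-anchored ligand that binds CD244 and, in mice, CD2. Phosphorylated tyrosine motifs in their cytoplasmic tails recruit SAP, an SH2 domain adaptor that brings in the kinase Fyn and keeps out the phosphatases SHP-1, SHP-2 and SHIP-1. In CD4 T cells this system is known for sustaining contact with B cells, for the help that follicular helper T cells give in germinal centres, and for the development of NKT cells.

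CD4 T cell markers were bright on all arrays, with Cd4 between 533.3 and 613.5 and Cd3e between 755.3 and 851.4. Over the 8 measured genes of the CD4 T cell list the summed signal was 9829 and 10440 in +/+ and 9131 and 10250 in san/san, and none of the 8 passed the limma test. B cell markers were present too, with Cd79a between 198.0 and 244.1. No probe set was annotated to the NK marker Klrb1c alone. Trimmed mean signals, taken between the 2% and the 98% percentile of each array, were 99.59 to 99.97, and array medians ranged from 30.8 to 40.4. Both number 1 arrays were hybridised on one day and both number 2 arrays on another, so each same-numbered pair gives a difference between genotypes within a day.

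Genotypes were compared probe set by probe set with limma on log2(signal + 6). Probe sets with a mean signal under 21.3 over the 4 arrays were left out, and p-values were adjusted by Benjamini-Hochberg over the 13579 tested. Of the 12 member probe sets 9 passed this filter, covering 7 genes. The other 3 were the only probe set of Slamf7, 1 of 3 for Slamf1 and 1 of 2 for Cd244a. At a limma adjusted p of 0.05 none of the 9 was called, against 1.06% of all probe sets (0.67% higher and 0.39% lower in san/san). Cd84 alone had an unadjusted p under 0.05, against 9.89% of all probe sets. San/san lay above +/+ without overlap at 5 of the 9 (21% of all probe sets) and below it at 1 (17.7%). The median log2 change was 0.17 over the 9 and 0.01 over all probe sets tested. With the replicate number as a block, which compares arrays within a day, 1 of the 9 passed, Cd84, where 6.27% of all probe sets did. In these bulk samples, fewer cells of a type and less RNA per cell cannot be told apart.

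**Figure D1:**
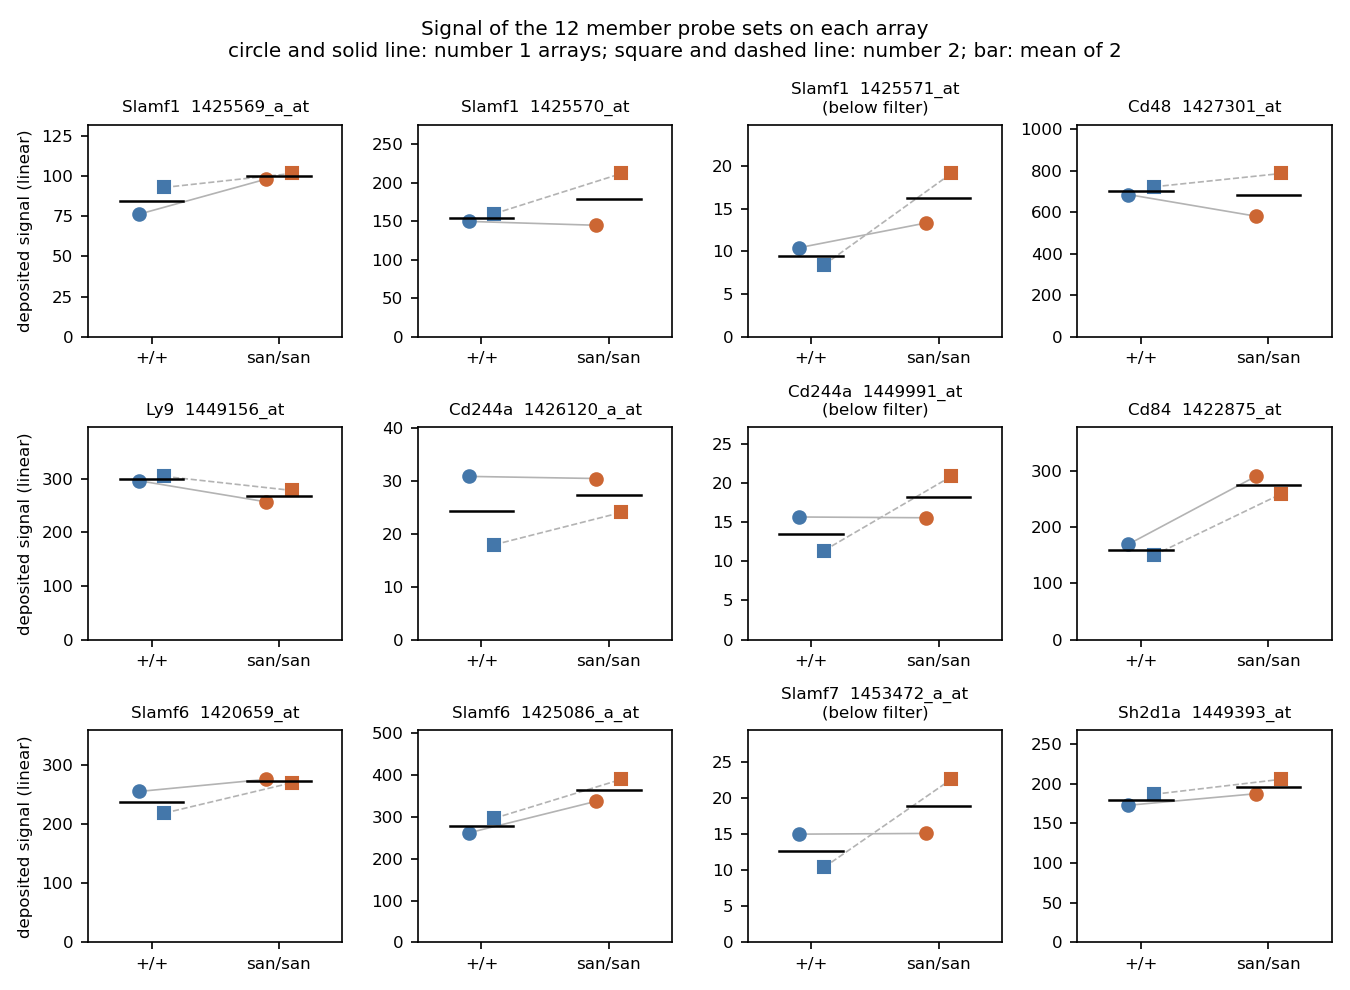
Deposited signal (linear scale, each panel from 0) of the 12 member probe sets on the 2 +/+ arrays (blue) and the 2 san/san arrays (orange), with bars at the group means and lines joining same-numbered arrays. The genotypes are far apart at Cd84, at 149.7 and 169.2 against 258.5 and 289.7, while the lines of Cd48 and of the Slamf1 probe set 1425570_at run in opposite directions.

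Cd84 encodes a receptor that binds itself and takes part in the contact between follicular helper T cells and B cells. Its probe set 1422875_at read 169.2 and 149.7 on +/+ arrays 1 and 2 and 289.7 and 258.5 on san/san arrays 1 and 2. Both san/san arrays were well above both +/+ arrays. The group means were 159.4 ± 13.8 and 274.1 ± 22.1 (SD, n = 2 each). On the log2 scale the change was 0.76 (standard error 0.18), a 1.69-fold higher signal with a 95% interval of 1.28-fold to 2.24-fold. Its limma p was 0.00163 before adjustment, rank 228 of 13579, and 0.0972 after it, so the change did not pass the threshold. The difference was nearly the same within each day, 0.76 among the number 1 arrays and 0.76 among the number 2 arrays. With the replicate number as a block the limma adjusted p was 0.0019. The block leaves 1 residual degree of freedom against 2 without it, so its p-value leans mostly on the spread that limma borrows from other probe sets. The adjusted p also depended on other settings. It was 0.462 with each array centred on its median and 0.33 without the variance trend, so other settings moved it away from the threshold. Without +/+ array 1 the log2 fold change was 0.84, and without +/+ array 2 it was 0.67. A fit that leaves out an array, here and for the genes that follow, takes the spread from the genotype with 2 arrays and assumes that the lone array varies like them. For Cd84 the change lay over all alternatives between 0.67 and 0.84, always higher in san/san.

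CD84 is also found on B cells, platelets and myeloid cells. The 12 myeloid markers were all higher on average in san/san, with summed signals of 1259 and 1318 in +/+ and 2775 and 2757 in san/san. Of the 11 above the filter 4 rose (0.776% of all genes, each by its brightest probe set), the neutrophil and macrophage genes Ngp, Lyz2, S100a8 and S100a9, and none fell. With the block 7 rose (6.04% of all genes were called). Camp, a neutrophil gene among these 7, had the lowest signal of the list, 4.5 on +/+ array 1, and none was listed at 0. Camp read 4.5 and 17.2 in +/+, under the filter level, and 55.2 and 59.1 in san/san. It entered the test through its san/san signal. Summed B cell markers were 1300 and 1354 in +/+ and 1233 and 1304 in san/san, with 3 of 8 higher on average in san/san, and none of the 7 above the filter passed. With the block Cr2, a complement receptor gene, fell by 0.73 on the log2 scale. The part of myeloid cells in the Cd84 difference was not tested.

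Slamf6 encodes Ly108, a self-binding receptor of T, B and NK cells and the gene next to Cd84. Its 2 probe sets both had higher signals in san/san, and neither passed. Probe set 1425086_a_at, whose suffix marks a set that matches several transcripts of a gene, read 262.0 and 296.8 on +/+ arrays 1 and 2 and 337.5 and 390.2 on san/san arrays 1 and 2. The genotypes did not overlap there. Its log2 fold change was 0.37 with a 95% interval of -0.02 to 0.77 (limma adjusted p = 0.541), with 0.36 among the number 1 and 0.39 among the number 2 arrays. Probe set 1420659_at read 255.2 and 218.6 in +/+ and 275.8 and 269.8 in san/san. The groups were again apart, but by less than the gap between the +/+ arrays. Its log2 fold change was 0.20 (95% interval -0.19 to 0.60, limma adjusted p = 0.813). The unadjusted p of 1425086_a_at was 0.0611, and 0.0186 with the block, where its adjusted p was 0.148. Whether Cd84 and Slamf6 differ in their change was not tested.

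Slamf1 encodes SLAM (CD150), the receptor that gave the family its name and a self-binding costimulator of T cells. Probe set 1425569_a_at read 76.3 and 93.0 in +/+ and 98.2 and 101.7 in san/san. Both san/san arrays were higher, yet +/+ array 2 lay near san/san array 1. The fitted log2 change was 0.23 (95% interval -0.23 to 0.69, limma adjusted p = 0.822). Probe set 1425570_at read 149.8 and 159.8 in +/+ and 144.8 and 212.1 in san/san. The genotypes overlapped, since san/san array 1 was the lowest of the 4 and san/san array 2 the highest. The log2 difference there was -0.05 among the number 1 arrays and 0.40 among the number 2 arrays, and 0.17 in the fit (limma adjusted p = 0.885). Without san/san array 2 that value was -0.092. The third Slamf1 probe set, 1425571_at, was below the filter, at 10.4 and 8.4 in +/+ and 13.3 and 19.1 in san/san.

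Ly9 encodes CD229, a self-binding receptor of T and B cells. It was the one member gene besides Cd48 with a negative change. Its signals were 296.2 and 304.3 in +/+ and 256.8 and 278.2 in san/san. Both san/san arrays were lower than both +/+ arrays, but the nearest arrays of the genotypes were closer to each other than the san/san arrays were. In the fit its log2 change was -0.16 (95% interval -0.54 to 0.22, limma adjusted p = 0.861), with -0.20 among the number 1 and -0.13 among the number 2 arrays.

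Cd48, the ligand gene, overlapped between the genotypes. It read 685.3 and 722.7 in +/+ and 581.1 and 786.9 in san/san. The san/san arrays enclosed the +/+ arrays on both sides. This gave a log2 change of -0.06 (95% interval -0.48 to 0.36, limma adjusted p = 0.971), and it was 0.16 without san/san array 1.

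Cd244a encodes 2B4, the CD48 receptor of NK cells and of some T cells. Its probe set 1426120_a_at was dim, at 30.8 and 17.9 in +/+ and 30.4 and 24.0 in san/san. The genotypes overlapped, and both number 1 arrays were brighter than both number 2 arrays. Its log2 change was 0.16 with the widest interval of the members, -0.76 to 1.07 (limma adjusted p = 0.96), and -0.16 without +/+ array 2. The other probe set, 1449991_at, was below the filter at 15.7 and 11.4 in +/+ and 15.6 and 20.9 in san/san. Markers of NK or CD8 T cells had summed signals of 693.8 and 637.1 in +/+ and 710.3 and 758.6 in san/san, and none of the 10 above the filter passed. Their median log2 change was -0.05, with 4 positive and 6 negative, among them the cytotoxic cell genes Prf1 (-0.41) and Klrd1 (-0.26). With the block 2 of the 10 passed (6.04% of all genes did), Eomes (log2 change 1.25) and Nkg7 (0.79), also genes of cytotoxic cells. The NK receptor gene Ncr1 read 34.9 and 30.5 in +/+ and 32.1 and 31.9 in san/san.

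Slamf7 encodes CRACC, a receptor of NK cells, plasma cells and activated lymphocytes. Its single probe set, 1453472_a_at, was below the filter, at 15.0 and 10.4 in +/+ and 15.1 and 22.6 in san/san. The number 1 arrays were equal within 0.1 signal units and san/san array 2 stood above the other arrays. Fitted without the filter its log2 change was 0.40 (standard error 0.43, limma adjusted p = 0.917). Among plasma cell markers, which that receptor can accompany, the summed signal was 1060 and 1146 in +/+ and 1184 and 1041 in san/san, with none of 5 called.

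Sh2d1a, the SAP gene, differed little between the genotypes. It read 172.7 and 186.5 in +/+ and 187.2 and 205.4 in san/san. The groups did not overlap, but the gap between the nearest arrays was small beside the spread within each genotype. The log2 fold change was 0.12 (95% interval -0.27 to 0.52, a ratio of 0.827 to 1.44, limma adjusted p = 0.911), with 0.11 among the number 1 and 0.14 among the number 2 arrays. This interval does not show that SAP transcript levels were equal.

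**Figure D2:**
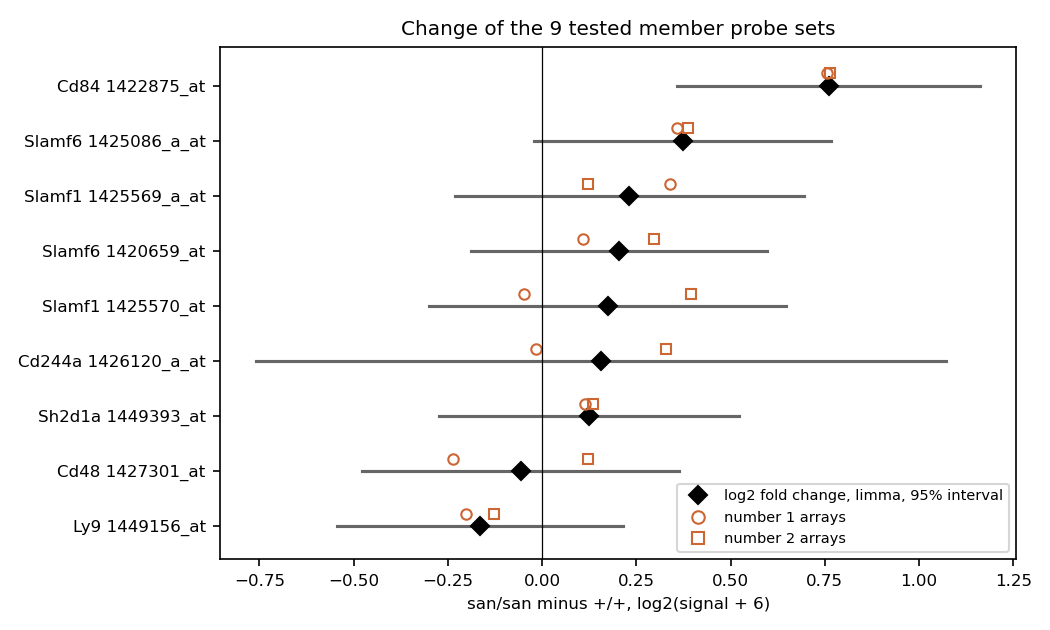
Log2 fold change of san/san against +/+ for the 9 tested member probe sets, with diamonds for the limma estimate, lines for its 95% interval, and open circles and squares for the number 1 and number 2 arrays. The interval of Cd84 (0.36 to 1.16) lies above 0, and the intervals of the other 8 include 0.

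The 7 SLAM genes of the cluster follow each other on mouse chromosome 1, in the order Cd244a, Ly9, Slamf7, Cd48, Slamf1, Cd84 and Slamf6 by the RefSeq gene table for GRCm38.p6, with 1 other gene among them that the table lists as protein-coding, Tma7-ps, although its symbol is that of a pseudogene. Sh2d1a lies on chromosome X. Rc3h1 is on chromosome 1 too, with 122 protein-coding genes between it and Cd244a. Of the 41 nearest other protein-coding genes, 20 on each side and the 1 between, 22 were measured and none passed the limma test (1.11% of all genes by their brightest probe set). Unadjusted p was under 0.05 for 3 of them (9.59% of all genes). Their median log2 change was -0.07, against 0.03 over all genes, with 9 positive (54.2% of all genes were) and 13 negative. The transcription factor gene Usf1 had -0.55 (limma adjusted p = 0.459), and its other probe set had -0.54. The prefoldin subunit gene Pfdn2 had -0.53 (limma adjusted p = 0.435) and passed with the block (limma adjusted p = 0.039, where 6.04% of genes passed). Fcer1g, the common signalling chain of Fc receptors in myeloid cells, had 0.63 (limma adjusted p = 0.422), but 1.10 among the number 1 arrays and 0.15 among the number 2 arrays. The SLAM family gene Slamf9, farther along the chromosome, had 0.48 (limma adjusted p = 0.763).

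**Figure D3:**
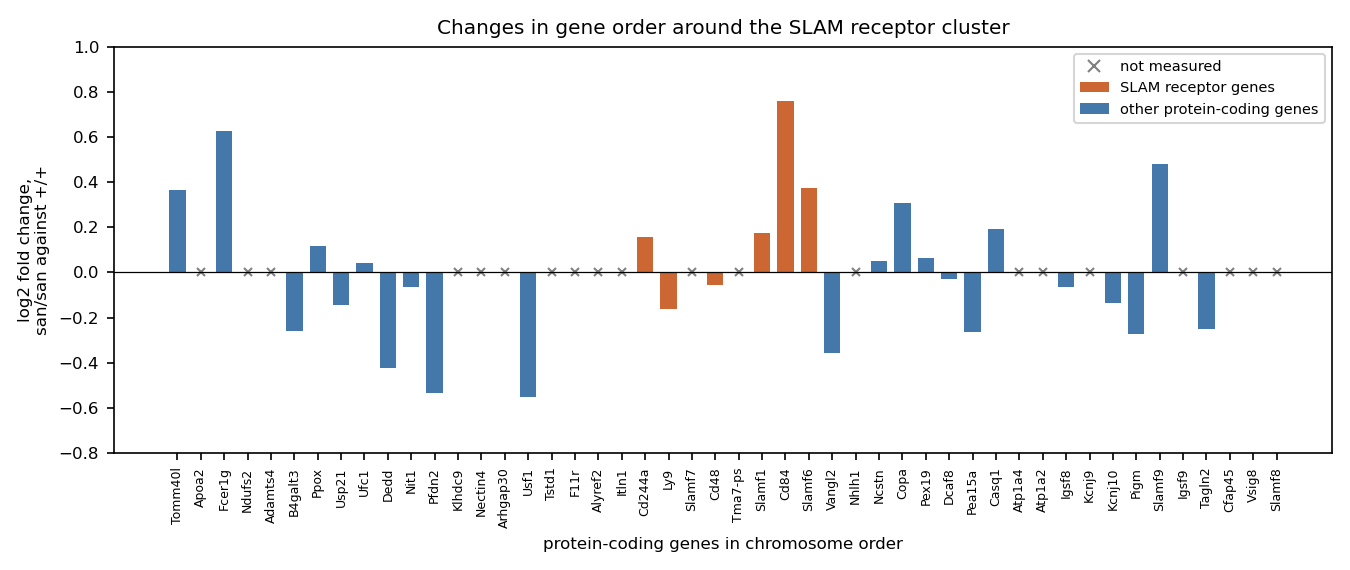
Log2 fold change of san/san against +/+ (vertical axis) for protein-coding genes in chromosome order, each by its brightest tested probe set, with SLAM genes in orange, other genes in blue and crosses where no probe set was tested. Cd84 has the highest bar at 0.76 and stands between Slamf1 at 0.17 and Slamf6 at 0.37, while bars on both sides of the cluster point either way.

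RefSeq promoter sequences of GRCm38.p6 matched 6 of the 8 members, all but Ly9 and Sh2d1a. The 250 bases before the annotated start are shown for Cd84, the member with the largest change, and for Slamf1 and Slamf6, the genes on its sides, so that the regulatory sequences of adjacent genes can be read side by side. Capitals mark matches on either strand to AP-1 (TGANTCA), E-box (CANNTG), STAT (TTCNNNGAA) or RUNX (TGTGGT) motifs, and no match overlapped another in these 3 sequences.
Cd84 (GRCm38.p6, chr1:171839447-171839696, plus strand): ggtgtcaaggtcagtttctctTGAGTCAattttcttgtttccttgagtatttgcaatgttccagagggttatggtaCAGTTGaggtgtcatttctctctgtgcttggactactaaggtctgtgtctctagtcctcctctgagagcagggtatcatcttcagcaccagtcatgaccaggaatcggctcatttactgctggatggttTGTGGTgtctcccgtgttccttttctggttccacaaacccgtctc
Slamf1 (GRCm38.p6, chr1:171766882-171767131, plus strand): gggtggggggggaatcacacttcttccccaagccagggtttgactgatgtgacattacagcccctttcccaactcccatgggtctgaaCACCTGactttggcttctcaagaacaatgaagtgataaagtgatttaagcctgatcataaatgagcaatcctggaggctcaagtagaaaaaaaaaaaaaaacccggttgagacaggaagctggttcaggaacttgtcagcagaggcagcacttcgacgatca
Slamf6 (GRCm38.p6, chr1:171917212-171917461, plus strand): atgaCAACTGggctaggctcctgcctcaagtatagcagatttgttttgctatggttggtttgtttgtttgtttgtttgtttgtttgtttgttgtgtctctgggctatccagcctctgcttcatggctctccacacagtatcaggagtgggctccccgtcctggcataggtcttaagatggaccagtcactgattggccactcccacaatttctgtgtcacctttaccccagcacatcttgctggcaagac

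Counted back from the start, the Cd84 sequence held an AP-1 match at bases -229 to -223, an E-box match at -174 to -169 and a RUNX match at -45 to -40. Slamf1 and Slamf6 each held 1 E-box match and no other. Among all 32851 promoter sequences of that length in the table, 6.75% held the AP-1 motif, 66.2% the E-box, 14.0% the RUNX motif and 7.02% the STAT motif. AP-1 matches also occurred in Cd244a and Slamf7, whose signals were dim, and a RUNX match in Cd48, at bases -76 to -71. No member sequence held the STAT motif. These matches are descriptions of letters and do not show binding.

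A list of 26 genes held partners in SLAM signalling and the further family genes Slamf8 and Slamf9. Of these genes 22 were measured, among them Slamf9, which was also counted among the chromosome neighbours. None of the 22 passed the limma test (1.11% of all genes), and 3 had an unadjusted p under 0.05 (9.59% of all genes). The median log2 change was 0.05, against 0.03 over all genes. Ptpn6 encodes SHP-1, one of the phosphatases that bind SLAM tails when SAP does not. Its probe set 1460188_at read 582.8 and 585.9 in +/+ and 264.9 and 448.0 in san/san. Both san/san arrays were lower, and they were far apart from each other. The change was -0.75 on the log2 scale (limma adjusted p = 0.236). It passed with the block (limma adjusted p = 0.00245), but not without the variance trend (limma adjusted p = 0.539). Without san/san array 2 the change was -1.12, and without san/san array 1 it was -0.38. A further Ptpn6 probe set, 1456694_x_at, had -0.06 (limma adjusted p = 0.98), so the probe sets of this gene disagreed.

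Ptpn11 encodes the related phosphatase SHP-2. Probe set 1451225_at read 208.1 and 297.9 in +/+ and 362.1 and 435.2 in san/san. Its genotypes did not overlap, and within each genotype the number 2 array was brighter. On the log2 scale the change was 0.66 (limma adjusted p = 0.255). This too passed with the block (limma adjusted p = 0.00519). It did not with each array centred on its median (limma adjusted p = 0.753) or without the variance trend (limma adjusted p = 0.539). The change was 0.91 without +/+ array 2 and 0.41 without +/+ array 1. Another tested probe set of the gene, 1421196_at, was dim and had 0.17 (limma adjusted p = 0.958). With the block 2 of the 22 passed, Ptpn6 and Ptpn11, where 6.04% of all genes did. Inpp5d, which encodes the inositol phosphatase SHIP-1, had 0.48 (limma adjusted p = 0.459). The kinase gene Fyn, named here although its change was small, had 0.12 (limma adjusted p = 0.919) at its brightest probe set, with 668.2 and 881.1 in +/+ and 838.5 and 830.3 in san/san. Its other probe set had 0.35 (limma adjusted p = 0.632). The kinase Lck and the SAP relatives Sh2d1b1 and Sh2d1b2 had no probe set of their own, and Slamf8 lay below the filter.

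Follicular helper and NKT cells are known to need SAP, and 15 of their genes formed a further list, here called SAP-dependent. The name refers to the cells, and whether each gene depends on SAP was not tested. Of 11 measured, 6 rose, all with genotypes apart (0.776% of all genes were called higher), and none fell (0.331% were called lower). They were Pdcd1, Icos, Cxcr5, Sostdc1, Il21 and Egr2, with log2 fold changes of 1.17 to 2.90 and limma adjusted p-values of 0.000797 to 0.0317. Sostdc1 read 2.4 and 4.6 in +/+ and 63.9 and 65.0 in san/san. Il21 read 16.1 and 13.4 in +/+ and 78.9 and 56.8 in san/san. In +/+ both were under the filter level, so they entered the test through their san/san signal. The Sostdc1 change was 3.91 with a pseudocount of 1 and 1.69 with 24. Without the filter neither gene passed (limma adjusted p = 0.0527 for Sostdc1 and 0.168 for Il21). The other tested Egr2 probe set, 1427682_a_at, went the other way, at 53.3 and 51.4 in +/+ and 38.1 and 42.5 in san/san, and did not pass (log2 fold change -0.34, limma adjusted p = 0.78). Several were known to move in these arrays when the list was written, so it is no independent evidence of the direction or size of change. The count was 3 without san/san array 1 and 2 without the filter or without the variance trend. Zbtb16, which encodes the NKT cell factor PLZF, read 7.6 and 15.1 in +/+ and 38.3 and 24.9 in san/san and did not pass (log2 fold change 1.13, limma adjusted p = 0.49). In +/+ Zbtb16 too was under the filter level and entered the test through its san/san signal. Batf, a transcription factor of helper T cells, had 0.77 (limma adjusted p = 0.143) and passed with the block (limma adjusted p = 0.00217). Bcl6, the lineage factor of follicular helper cells, had 0.71 (limma adjusted p = 0.423). Ascl2, which precedes it, was dim and had 1.13 (limma adjusted p = 0.481). It read 7.2 and 16.2 in +/+ and 32.8 and 30.2 in san/san, so it also entered the test through san/san. Cd40lg, the gene of the CD40 ligand through which T cells help B cells, was dim too. It was the 1 measured gene of the list with a negative change, -0.52 (limma adjusted p = 0.864), and was named after its values were seen. The median change of the 11 was 1.17, beside 0.16 for the 7 measured member genes, each by its brightest probe set. Among the number 1 arrays these medians were 1.56 and -0.016, and among the number 2 arrays 1.02 and 0.33. The medians of the list and of the members were not tested against each other. Several list genes were known to move and some entered the test through san/san, so a high median of the list follows in part from the choice.

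**Figure D4:**
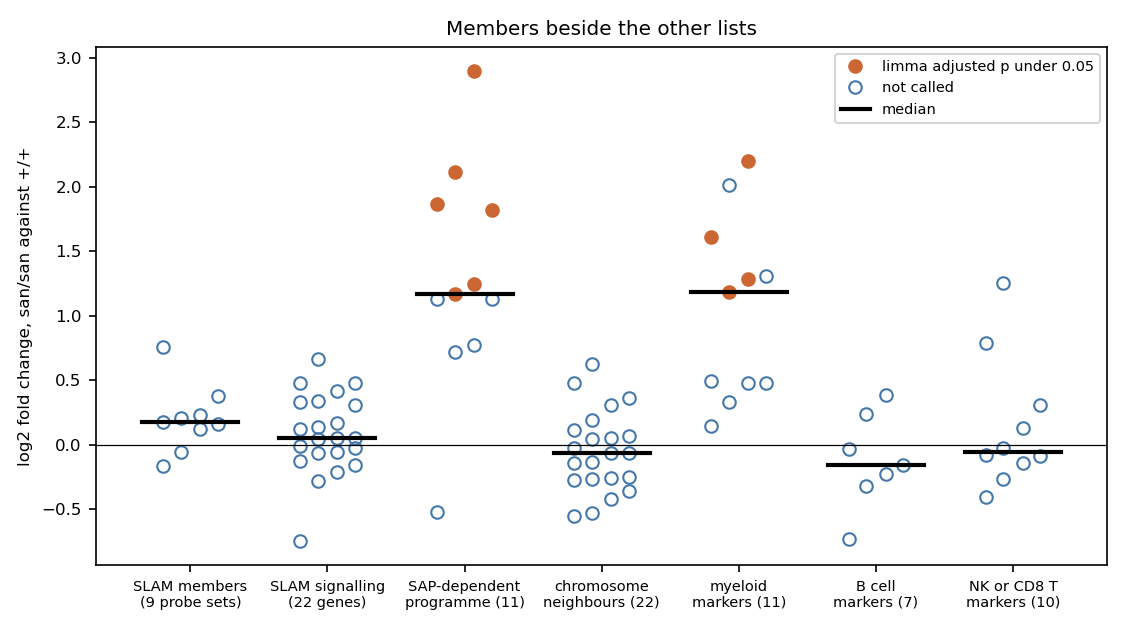
Log2 fold change of san/san against +/+ (vertical axis) for the 9 tested member probe sets and for genes of other lists by their brightest probe set, with filled points for a limma adjusted p under 0.05, open points for genes not called, and bars at medians. No point is filled among the members, the SLAM signalling list (median 0.05) or the chromosome neighbours (median -0.07). In the list of follicular helper and NKT cell genes, labelled SAP-dependent programme, 6 of 11 are filled, and 4 of 11 among myeloid markers. Several genes of the former list were known to move in these arrays when it was written.

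The named probe sets closest to Cd84 over the 4 arrays, by the root mean square difference of their mean-centred log2 values, belonged to Rrm1, Ifi209, Dna2, Mkrn1 and Nek7, with differences of 0.0162 to 0.0322. Rrm1 encodes the large subunit of ribonucleotide reductase, Ifi209 an interferon-inducible PYHIN protein, Dna2 a replication helicase and nuclease, Mkrn1 a ubiquitin ligase and Nek7 a mitotic kinase. Rrm1 read 79.7 and 72.1 in +/+ and 138.5 and 123.2 in san/san. Nek7 read 441.5 and 396.0 in +/+ and 720.4 and 682.9 in san/san. The 5 were picked for likeness to Cd84, so log2 fold changes near its own, 0.71 to 0.74, follow from the choice. None of the 5 passed the limma test (adjusted p-values of 0.0807 to 0.584). With the block Rrm1, Ifi209, Mkrn1 and Nek7 passed (limma adjusted p = 0.0009 to 0.00894), and Dna2 did not (0.195). With 4 arrays in 2 groups, many probe sets come close to any given pattern.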

How the data were processed

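CD4 cells of 2 wild type and 2 sanroque arrays were compared, grouped and numbered by the sample titles. The deposited table holds linear intensity values, 1 for each probe set on each array, and its nearly equal trimmed means show that the authors scaled the arrays before deposit. For probe summary and background correction the method is not given in the sources used here. Chip type, sample wording and hybridisation day were read per the file headers. No further scaling was applied. The number of arrays limits the precision.

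Symbols were those of the platform annotation, checked by gene identifier against a RefSeq table. Of all probe sets 20393 had 1 symbol, 691 had several, and 1555 apart from the 64 controls were not listed. The analysis used log2(signal + 6), with the rounded 20th percentile of all values as pseudocount, a scale that understates changes of dim probe sets. Controls and probe sets with a mean under the 40th percentile were left out. Limma 3.58.1 in R 4.3.3 (lmFit, eBayes with a variance trend) was run two-sided without covariates and called at an adjusted p of 0.05. Other genes were represented by their brightest tested probe set. All members were named; of other lists, genes past the test without overlap and up to 4 with the largest change, and for the member with the smallest p the 5 nearest patterns. Fyn and, to show where probe sets disagree, second probe sets were added. Members and lists were chosen with earlier results of these data known. The fits were tested on simulated data with independent arrays and no day effect, so the block was not tested under a shared day. Figures used matplotlib 3.10.9.

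The replicate numbers pair the arrays, since same-numbered arrays share a hybridisation day. Their deviations from the genotype means correlated across probe sets with 0.392, from 2 pairs. The titles of +/+ array 1 and san/san array 2 carry the letters pt before the number, and the other titles carry the abbreviation no. instead. Each pair thus joins both wordings, and their meaning was not examined. Alternatives were quantile normalization, median centring, pseudocounts of 1 and 24, leaving out the filter or raising it to the 60th percentile, no variance trend, the replicate block, and each array left out.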

Additional observations from a re-analysis of the deposited data

How the results depend on the processing

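Over all probe sets the count of calls was 144, against 56 without the filter, 47 without the variance trend, 852 with the replicate block, and 105 to 356 with 1 array left out. Of the 9 member probe sets 0 passed, 1 with the replicate block and 0 to 1 with 1 array left out; in both cases it was Cd84. The signalling list went from 0 to 2 with the block and 0 to 1 with 1 array left out. The SAP-dependent list went from 6 to 2 without the filter, to 2 without the variance trend, and to 3 to 6 with 1 array left out. The chromosome neighbours went from 0 to 1 with the block, Pfdn2. Quantile normalization, median centring, both pseudocounts and the 60th percentile filter kept these counts within 1.5 times. With 1 array left out the sign turned for 5 of the 28 probe sets of members and list genes, cell markers and second probe sets apart, that were refitted by name, and under no other alternative: Slamf1 1425570_at ranged from -0.092 to 0.44, Cd48 from -0.27 to 0.16, Cd244a from -0.16 to 0.47, Fyn from -0.078 to 0.32 and Cd40lg from -1.21 to 0.16. The block changed the calls of Cd84, Ptpn6, Ptpn11, Batf and Pfdn2, of Rrm1, Ifi209, Mkrn1 and Nek7, and of the markers Camp, Cr2, Eomes and Nkg7, and of no other named probe set. Signal near the filter limits Cd244a, and Slamf7 was not tested above it.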
